A study of Mus musculus with 6 samples.

Results

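The folate hydrolase, folate transport and one-carbon enzyme genes described here are Folh1, Folr1, Slc19a1, Slc46a1, Fpgs, Ggh, Mthfd1 and Shmt1, 8 of the 23366 genes in the deposited expression table. They were taken by gene symbol. The list was chosen by pathway with the TPM differences between knockout and wild type in these same libraries already known, Folh1 being 1 of the 8 genes called higher. Their values in that contrast are therefore given as a description, and no p-value is attached to them. RNA-seq libraries were made from isolated epithelial cells of the submandibular salivary gland, 3 from p63 knockout (KO) mice and 3 from p63 wild-type (WT) mice, all adults at 12 weeks of age. p63 is the product of Trp63, a transcription factor found in basal cells of epithelia, and the study asked about its role in salivary progenitor cells. Of the knockout, the sources used here name no strain, deleted exons, driver or timing. The labels name separate samples without saying how mice or glands were allotted to them, so the spread between libraries may be partly technical.

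Folates carry single carbon units for the synthesis of thymidylate, purines and methionine. Outside the cell they circulate mostly with a single glutamate, and cells take them up through a receptor or a carrier. Inside the cell a chain of glutamates is added, which keeps the vitamin in the cell and fits it to its enzymes, and hydrolases take that chain off again. In humans the product of FOLH1 is also called prostate-specific membrane antigen, and tracers made against it accumulate in the salivary glands.

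Values are TPM, an abundance corrected for gene length and scaled to 1000000 per library, so levels of different genes can be compared and sequencing depth is unknown. Trp63 stood at 1.59, 0.816 and 1.76 TPM in KO libraries 1, 2 and 3, against 3.48, 1.85 and 3.68 TPM in WT libraries 1, 2 and 3, lower in every KO library but not called. KO library 3 stood apart. It had 10634 genes at 1 TPM or more, against 11129 to 11235 in the other 5 libraries, and its 50 most abundant genes took 80.3% of the TPM, against 69.2% to 75.9%. Relative to the WT mean, the median of all tested genes was 0.27, 0.24 and -0.29 on the log2 scale in KO libraries 1, 2 and 3. Epithelial markers were present throughout, with 8 genes summing to 783 to 1877 TPM in KO libraries and 1059 to 1261 TPM in WT libraries. Of the 8 markers of the granular convoluted tubule, Ren1 was at 0 TPM in every library. Products of the parotid, a neighbouring gland, summed to 2268 TPM in KO library 1 and 1105 TPM in WT library 2, against 317 to 514 TPM in the others. The Dcpp and Smgc transcripts were highest in WT library 1.

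Folh1 encodes a membrane-bound carboxypeptidase whose active site faces outward and which removes glutamates from polyglutamated folates and from the neuropeptide N-acetylaspartylglutamate. It stood at 13.3, 21.1 and 18.8 TPM in KO libraries 1, 2 and 3, against 1.18, 1.01 and 2.19 TPM in WT libraries 1, 2 and 3. Every KO library was high and every WT library was low, with no overlap. The mean was 17.8 ± 3.98 TPM in KO and 1.46 ± 0.639 TPM in WT (SD, n = 3 each), a ratio of 12.2, and the lowest KO value was 6.09 times the highest WT value. On the log2(TPM + 1) scale, which understates changes of low genes, the fold change was 2.94 (SE 0.28). Among the 11268 genes tested, ordered from the most abundant, Folh1 ranked 4806, 3186 and 2220 in KO libraries 1, 2 and 3, against 10752, 10958 and 9581 in WT libraries 1, 2 and 3. In WT it thus lay near the bottom of the measured range, and in KO well inside it. In bulk samples, more cells that express a gene and more transcript per cell cannot be told apart.

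Folh1 was called higher in KO and was the 1 member of 8 that was called. The call was an adjusted p under 0.05 in limma over all tested genes, which 44 genes met (0.39%), 8 of them higher in KO (0.071%). The groups did not overlap for 1 of 8 members, Folh1, and for 21.1% of all genes tested. Without KO library 3 the call was met by 3 of 8 members, Folh1, Fpgs and Shmt1, and by 45.5% of all genes. Nothing can be read from these shares, because the members were chosen with this contrast known. All 8 members passed the filter on low values. The call was kept without each KO library in turn and lost without any 1 WT library, where the log2 fold change was 2.87, 2.81 and 3.14 without WT libraries 1, 2 and 3. Without KO library 3 it was 2.89. Among KO libraries 2 and 3 and WT library 3, the 3 that were lowest in Dcpp transcripts and had no raised parotid products, Folh1 stood at 21.1, 18.8 and 2.19 TPM, with a log2 fold change of 2.71 that was not called.

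Summed markers of several cell types were also lower in KO, and their part in the Folh1 values was not tested. Basal and myoepithelial cells are the cells of this gland known to carry p63. Their 7 markers summed to 123 to 226 TPM in KO libraries and 350 to 453 TPM in WT libraries, and 2 of 6 tested were called, both lower. The 7 fibroblast markers summed to 130 to 269 TPM in KO libraries and 278 to 356 TPM in WT libraries, and 1 of 7 was called, as lower. The 8 measured macrophage markers summed to 124 to 151 TPM in KO and 209 to 212 TPM in WT, with 0 of 8 called. Of these 8, 6 had a negative log2 fold change and 2 a positive one. Cd163 was higher in every KO library, at 7.62, 6.32 and 4.54 TPM, against 2.14, 3.06 and 4.13 TPM in WT. Markers of the granular convoluted tubule summed to 13151 to 37266 TPM in KO and 116037 to 135048 TPM in WT, with 1 of 7 tested called, as lower. Lymphocyte markers were low but also separated the groups, with 7 genes summing to 0.570 to 0.815 TPM in KO and 2.23 to 3.60 TPM in WT. Glia, which express Folh1 in the mouse nervous system, gave no such separation. Their 9 markers summed to 10.6 to 28.8 TPM in KO and 18.9 to 23.4 TPM in WT, with 0 of 7 tested called. Sums also overlapped for the acinar, parotid, endothelial and adipocyte lists. Most of the acinar sum was 1 gene, Prol1, at 85790 to 144115 TPM in KO and 68796 to 85772 TPM in WT. Overlapping sums did not mean balanced signs. Tested markers with a positive and a negative log2 fold change numbered 1 and 6 for acinar cells and 1 and 6 for glia. They numbered 0 and 5 for adipocytes, 2 and 2 for the parotid and 3 and 3 for endothelium.

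**Figure D1:**
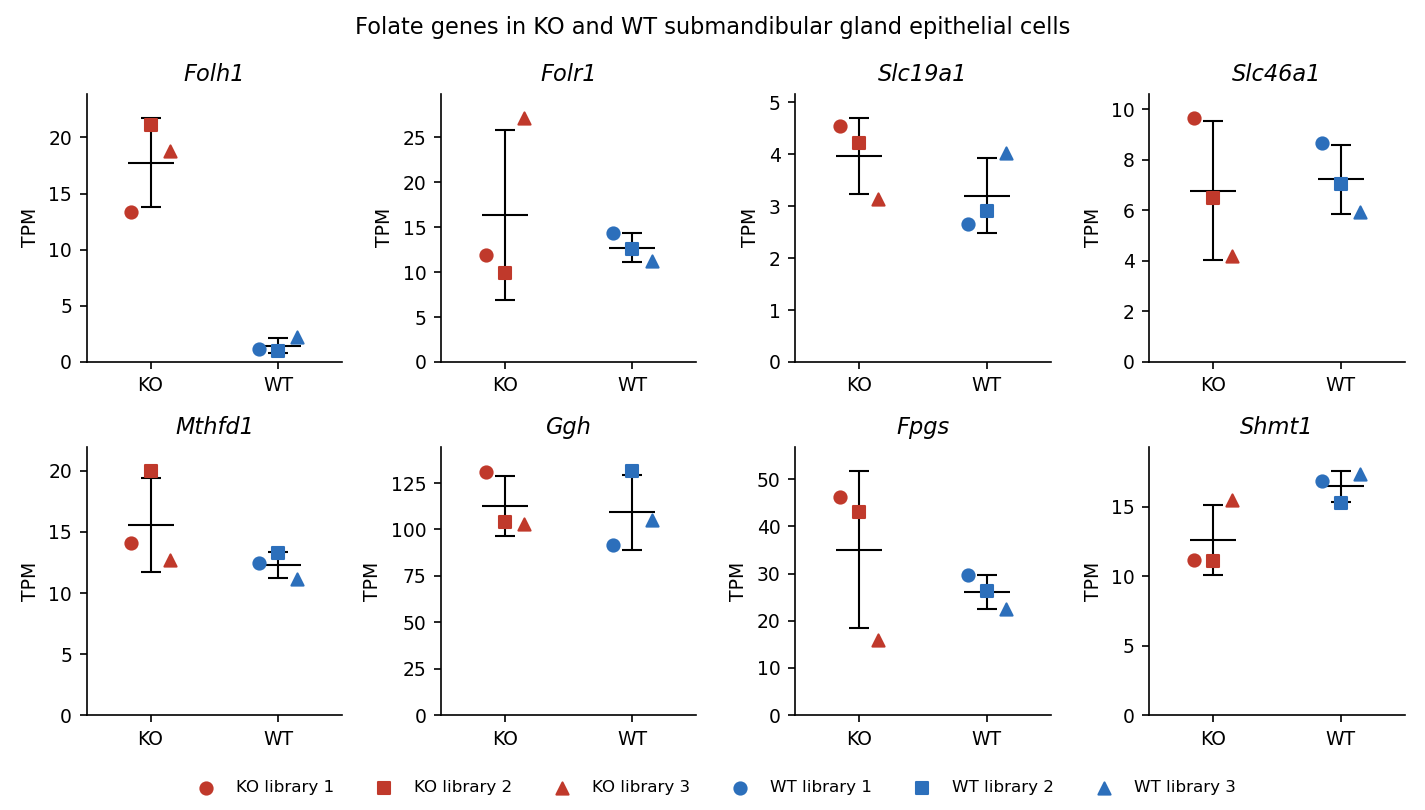
TPM of the 8 genes in each library, KO on the left and WT on the right of each panel, with a separate axis from 0 for each gene; points are libraries and black bars the mean ± SD (n = 3). For Folh1 the KO libraries lie at 13.3 to 21.1 TPM and the WT libraries at 1.01 to 2.19 TPM, while the groups overlap for the other members.

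Uptake genes did not separate the groups. Folr1, the folate receptor anchored in the outer membrane that takes up folate by endocytosis, stood at 11.9, 9.94 and 27.2 TPM in KO libraries 1, 2 and 3, against 14.4, 12.6 and 11.2 TPM in WT libraries 1, 2 and 3. KO library 3 held the highest value and the other KO libraries lay at or below the middle of the WT range, so that the log2 fold change was 0.21 (SE 0.37) with all libraries and -0.20 without KO library 3. Slc19a1, the reduced folate carrier, an anion exchanger that serves most cells, stood at 4.54, 4.22 and 3.15 TPM in KO and 2.67, 2.91 and 4.02 TPM in WT. KO libraries 1 and 2 lay above all WT libraries and KO library 3 lay within their range (log2 fold change 0.25, SE 0.23).

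Slc46a1 encodes the proton-coupled folate transporter, which works best at acid pH and takes up folate in the small intestine. It stood at 9.66, 6.48 and 4.21 TPM in KO libraries 1, 2 and 3, against 8.68, 7.06 and 5.94 TPM in WT libraries 1, 2 and 3. The KO libraries spanned the whole WT range and beyond it on both sides. The log2 fold change was -0.13 (SE 0.31) and turned to 0.13 without KO library 3.

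Retention of folate inside the cell rests on opposing enzymes. Fpgs, folylpolyglutamate synthase, adds the glutamate chain, and it stood at 46.2, 43.1 and 16.0 TPM in KO libraries 1, 2 and 3, against 29.6, 26.3 and 22.4 TPM in WT libraries 1, 2 and 3. KO libraries 1 and 2 were above every WT library and KO library 3 was below every one. With all libraries the log2 fold change was 0.28 (SE 0.40) and Fpgs was not called. Without KO library 3 it was 0.76 and Fpgs was called higher, as were 33.8% of all genes tested in that comparison. In GENCODE M21 the exons of Fpgs overlap those of Eng on the opposite strand, and the sources used here do not say whether the counting used strand. Eng stood at 3.47, 1.87 and 2.85 TPM in KO and 7.07, 4.65 and 6.33 TPM in WT.

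Ggh, gamma-glutamyl hydrolase, which takes the chain off in lysosomes and is also secreted, was the most abundant member in every library. It stood at 131, 104 and 103 TPM in KO libraries 1, 2 and 3, against 91.6, 131 and 105 TPM in WT libraries 1, 2 and 3. The groups covered nearly the same range. The means were 113 ± 16.1 TPM in KO and 109 ± 20.2 TPM in WT (SD, n = 3 each), with a log2 fold change of 0.05 (SE 0.21) whose sign changed with the scaling of the libraries.

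The ratio of Ggh to Fpgs within a library, which no scaling of the library alters, was 2.84, 2.41 and 6.42 in KO libraries 1, 2 and 3, against 3.09, 5.004 and 4.67 in WT libraries 1, 2 and 3. KO libraries 1 and 2 had less hydrolase per synthase transcript than any WT library and KO library 3 had more, so the groups overlapped. Folh1 and Ggh both remove glutamates from folate chains, one at the cell surface and the other in the lysosome. Their ratio, Folh1 over Ggh, was 0.102, 0.203 and 0.183 in KO libraries and 0.0129, 0.00768 and 0.0209 in WT libraries. Ggh transcript thus remained the more abundant of the pair in every library, by a smaller margin in KO.

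Shmt1 had the most negative log2 fold change of the members. Shmt1, serine hydroxymethyltransferase, moves a carbon unit between serine and folate. It stood at 11.2, 11.1 and 15.5 TPM in KO libraries 1, 2 and 3, against 16.8, 15.2 and 17.3 TPM in WT libraries 1, 2 and 3. KO libraries 1 and 2 lay below all WT libraries, and KO library 3 lay just above the lowest of them. The log2 fold change was -0.38 (SE 0.22), and without KO library 3 it was -0.52 and called lower, as were 11.7% of all genes tested there. Exons of Smcr8 overlap Shmt1 on the opposite strand, and Smcr8 stood at 7.83, 7.28 and 4.87 TPM in KO and 4.67, 5.18 and 5.99 TPM in WT.

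Mthfd1, a protein with 3 activities that interconverts the folate forms carrying the carbon unit, stood at 14.1, 19.98 and 12.7 TPM in KO libraries 1, 2 and 3, against 12.4, 13.3 and 11.2 TPM in WT libraries 1, 2 and 3. KO library 2 was highest and KO library 3 fell inside the WT range (log2 fold change 0.30, SE 0.24). The gene Gm47525 overlaps its exons on the opposite strand in GENCODE M21. The ratio of Shmt1 to Mthfd1 within a library was 0.796, 0.556 and 1.22 in KO and 1.35, 1.15 and 1.55 in WT. KO libraries 1 and 2 were below every WT library, and KO library 3 was above the lowest of them.

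**Figure D2:**
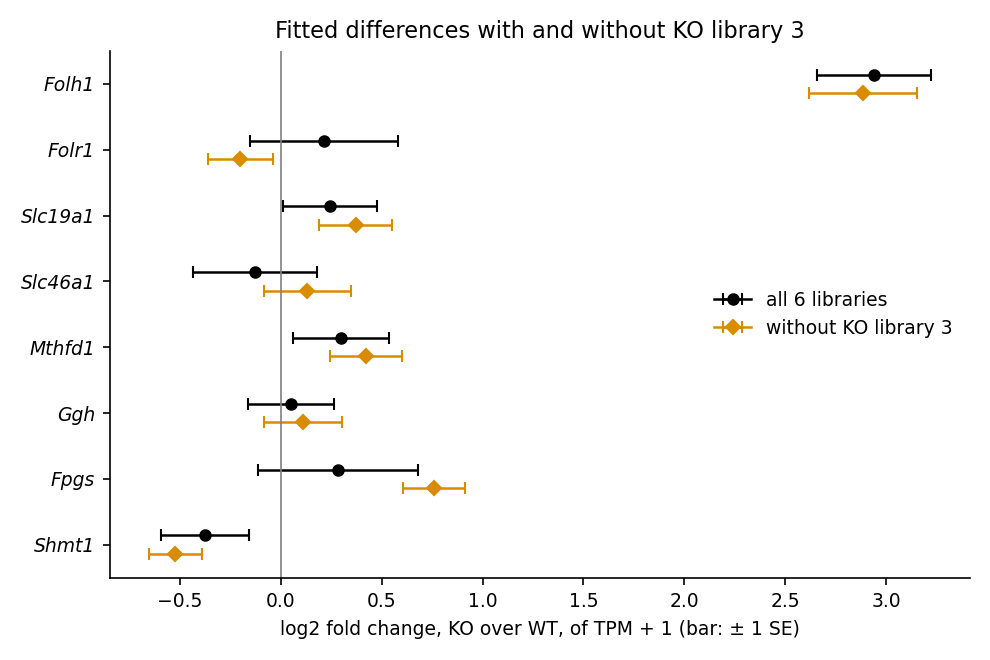
Log2 fold change of TPM + 1, KO over WT, for the 8 genes (horizontal axis, bar ± 1 SE), with all 6 libraries (black circles) and without KO library 3 (orange diamonds). Folh1 stays near 2.9 in both; Fpgs moves to 0.76 from 0.28 when KO library 3 is left out, and Folr1 and Slc46a1 change sign.

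The order of the members by level differed between the groups in the places of Folh1 and Shmt1. In KO the means ran Ggh, Fpgs at 35.1 TPM, Folh1 at 17.8 TPM, Folr1 at 16.4 TPM, Mthfd1 at 15.6 TPM, Shmt1 at 12.6 TPM, Slc46a1 at 6.78 TPM and Slc19a1 at 3.97 TPM. In WT they ran Ggh, Fpgs at 26.1 TPM, Shmt1 at 16.5 TPM, Folr1 at 12.7 TPM, Mthfd1 at 12.3 TPM, Slc46a1 at 7.23 TPM, Slc19a1 at 3.20 TPM and Folh1 at 1.46 TPM. In KO the library values of Fpgs, Folh1, Folr1, Mthfd1 and Shmt1 overlapped from each gene to the next, as did those of Slc46a1 and Slc19a1. In WT the only neighbours in this order that overlapped were Folr1 and Mthfd1. The 8 members had a median log2 fold change of 0.23, with 6 positive and 2 negative, beside a median of 0.09 over all genes tested.

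Other genes of folate, one-carbon and nucleotide metabolism were taken from 6 lists holding 59 genes, none of them members, of which 48 passed the filter on low values. By limma 0 of these 48 were called at an adjusted p of 0.05, and 14 had an unadjusted p under 0.05 (29.2%, beside 15.4% of all genes tested). The groups did not overlap for 8 of the 48 as higher in KO and for 4 as lower, beside 5.42% and 15.6% of all genes tested. Without KO library 3 limma called 15 of the 48 higher (31.2%, beside 33.8% of all genes) and 6 lower (12.5%, beside 11.7%). The median log2 fold change of the 48 genes was 0.20. A further 2 lists, of proliferation genes and of relatives of Folh1, held 19 genes, of which 12 were tested. Of these, 0 were called by limma and 3 had an unadjusted p under 0.05. All these lists were chosen with earlier results of these data known, so nothing can be read from their shares beside those of all genes.

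The methionine cycle, which receives the carbon unit from folate and passes it on as a methyl group, held some of the widest gaps. Ahcy clears S-adenosylhomocysteine, a product of methylation reactions. It stood at 44.7, 63.4 and 26.5 TPM in KO libraries 1, 2 and 3, against 15.3, 15.02 and 16.5 TPM in WT libraries 1, 2 and 3. Every KO library was above every WT library, with the gap smallest in KO library 3 (log2 fold change 1.38, SE 0.32, limma adjusted p = 0.099). Without KO library 3 the limma adjusted p was 0.00078, in a fit that called 33.8% of all genes tested higher. Gnmt, a methyltransferase that is inhibited by methylated folate, stood at 52.9, 104 and 52.2 TPM in KO and 31.3, 33.0 and 26.5 TPM in WT (log2 fold change 1.11, SE 0.30, limma adjusted p = 0.14).

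Cth makes cysteine from cystathionine in the branch that leaves the cycle. It stood at 14.8, 32.6 and 3.39 TPM in KO libraries 1, 2 and 3, against 2.89, 2.81 and 3.25 TPM in WT libraries 1, 2 and 3. KO libraries 1 and 2 were far above WT and KO library 3 was at its upper edge (log2 fold change 1.74, SE 0.65, limma adjusted p = 0.27). In the same list Mtr, Mmachc and Ahcyl2, named after their values were seen, were lower in every KO library than in any WT library. Mtr, methionine synthase, which takes the methyl group from folate with cobalamin as cofactor, stood at 2.28, 2.76 and 2.76 TPM in KO and 3.93, 4.93 and 4.32 TPM in WT (limma adjusted p = 0.24). Mmachc, which processes cobalamin, had a log2 fold change of -0.72 and Ahcyl2, a relative of Ahcy, one of -0.74. Of the 11 tested genes of this list 3 did not overlap as higher and 3 as lower, and its median log2 fold change was 0.003.

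Among the cytosolic folate enzymes, Aldh1l1 oxidises formyl-folate to carbon dioxide. It stood at 16.9, 42.9 and 9.96 TPM in KO libraries 1, 2 and 3, against 11.2, 14.5 and 8.13 TPM in WT libraries 1, 2 and 3. Every WT library was below KO libraries 1 and 2, and KO library 3 lay inside the WT range (log2 fold change 0.78, SE 0.49, limma adjusted p = 0.44). Gart, a purine synthesis enzyme that uses formyl-folate and was named after its values were seen, stood at 12.6, 15.1 and 9.28 TPM in KO and 8.88, 6.94 and 7.54 TPM in WT. Every KO library was above every WT library (log2 fold change 0.58, SE 0.25, limma adjusted p = 0.32). The list of 7 tested genes had a median log2 fold change of 0.58, with 5 positive and 2 negative.

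In mitochondria, Mthfd1l and Mthfd2 belong to the route that turns the carbon of serine into formate. Mthfd1l stood at 2.54, 2.504 and 0.904 TPM in KO libraries 1, 2 and 3, against 0.535, 0.441 and 1.01 TPM in WT libraries 1, 2 and 3 (limma adjusted p = 0.25). Mthfd2 stood at 53.7, 32.6 and 20.8 TPM in KO and 27.9, 16.5 and 27.1 TPM in WT (limma adjusted p = 0.49). Both were above all WT libraries in KO libraries 1 and 2 and within the WT range in KO library 3. Amt, the aminomethyltransferase of the glycine cleavage system, went the other way, at 8.77, 8.66 and 12.7 TPM in KO and 17.5, 18.8 and 16.8 TPM in WT. It was lower in every KO library than in any WT library (log2 fold change -0.78, SE 0.23, limma adjusted p = 0.16). The 10 tested genes of this list were split evenly, 5 positive and 5 negative, with a median of 0.06.

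The serine synthesis genes feed the carbon unit into the pathway. Phgdh, the first enzyme of that route, stood at 111, 67.2 and 45.0 TPM in KO libraries 1, 2 and 3, against 48.3, 40.6 and 53.7 TPM in WT libraries 1, 2 and 3 (limma adjusted p = 0.42). Psat1, the next enzyme, stood at 43.4, 21.6 and 23.7 TPM in KO and 11.7, 9.02 and 27.5 TPM in WT (limma adjusted p = 0.35). The groups overlapped for both, and for the last enzyme, Psph, whose log2 fold change was -0.15.

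**Figure D3:**
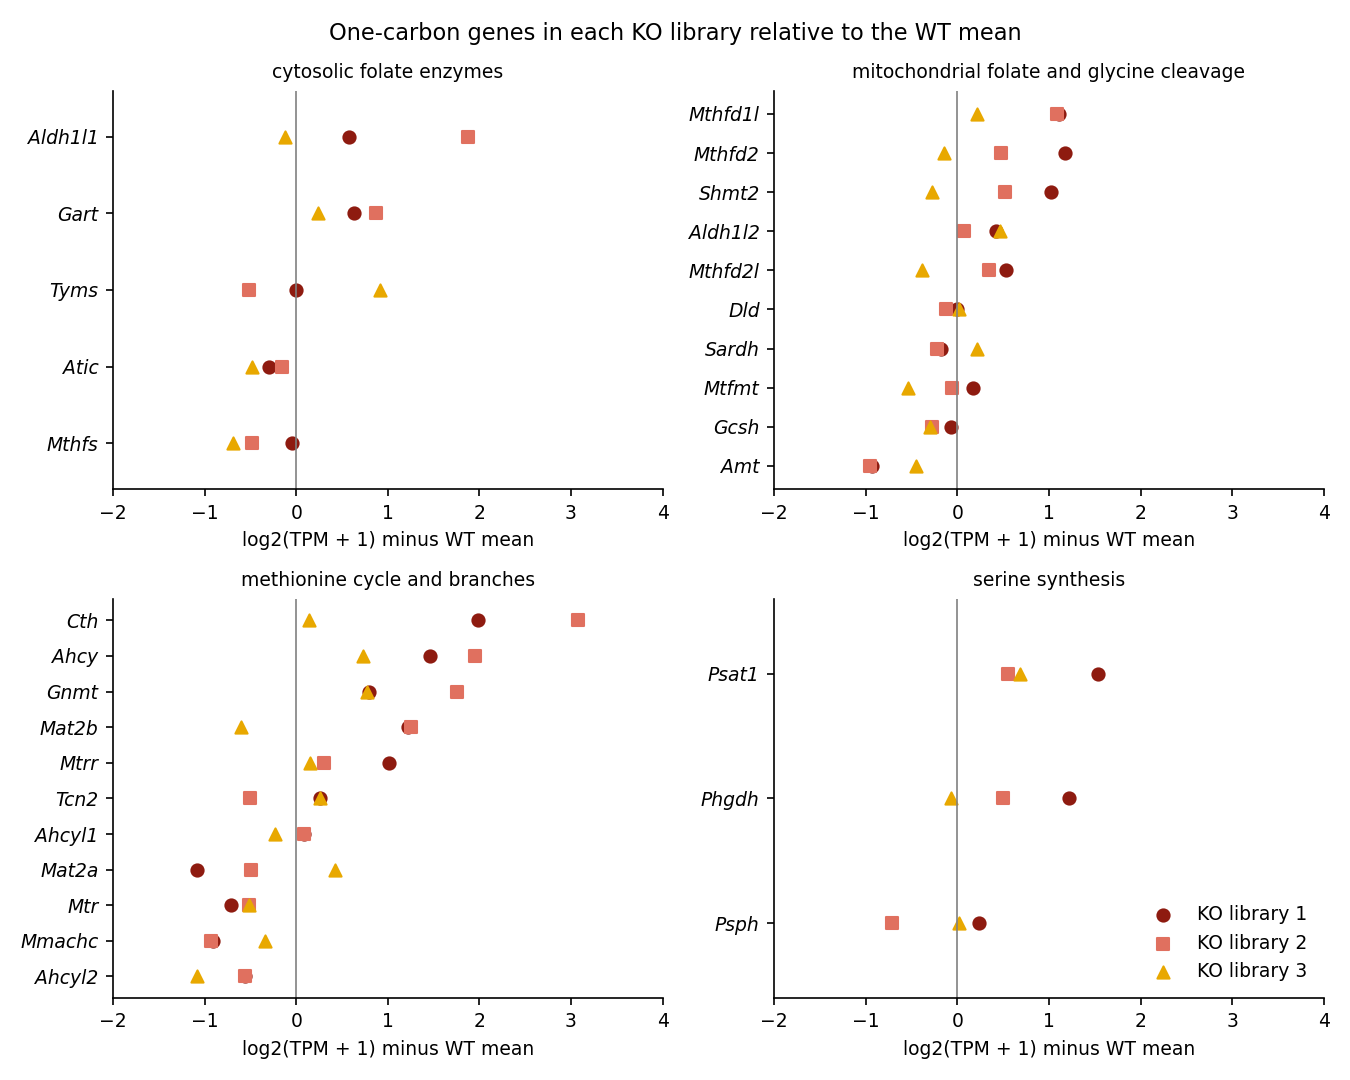
Genes of 4 one-carbon lists in KO libraries 1 (dark red circles), 2 (light red squares) and 3 (yellow triangles), as log2(TPM + 1) minus the mean of the WT libraries, drawn at 0. For Cth, Mat2b, Mthfd1l and Ahcy, KO libraries 1 and 2 lie more than 1 log2 unit above WT and KO library 3 does not. Genes above in all KO libraries include Ahcy, Gnmt and Gart, and genes below in all include Amt and Mtr.

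Among the other uptake and efflux genes, the groups overlapped for all 5 that were tested. Folr2, the folate receptor of macrophages, stood at 6.78, 5.85 and 1.59 TPM in KO libraries 1, 2 and 3, against 5.25, 6.63 and 6.02 TPM in WT libraries 1, 2 and 3 (limma adjusted p = 0.59). Its log2 fold change was -0.43 and turned to 0.07 without KO library 3. Abcc1 and Abcc4, exporters that can carry folates out of the cell, had log2 fold changes of 0.32 and 0.28 (limma adjusted p = 0.61 and 0.47).

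Nucleotide synthesis uses folate carbon in purines and in thymidylate. Impdh1, an enzyme on the way to guanine nucleotides, stood at 30.7, 30.8 and 26.4 TPM in KO libraries 1, 2 and 3, against 17.2, 15.8 and 20.2 TPM in WT libraries 1, 2 and 3 (log2 fold change 0.70, SE 0.20, limma adjusted p = 0.16). Rrm2, a subunit of ribonucleotide reductase, stood at 10.02, 2.11 and 21.2 TPM in KO and 1.91, 1.28 and 1.94 TPM in WT (limma adjusted p = 0.26). Tk1, thymidine kinase, stood at 2.77, 2.39 and 14.8 TPM in KO and 1.69, 1.30 and 0.713 TPM in WT (limma adjusted p = 0.30). None of these overlapped between the groups, and Rrm2 and Tk1 were highest in KO library 3.

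KO library 3 was also highest in proliferation genes. Mki67, a marker of cycling cells named after its values were seen, stood at 0.890, 0.504 and 10.3 TPM in KO libraries 1, 2 and 3, against 0.655, 0.719 and 0.743 TPM in WT libraries 1, 2 and 3. The median of the 8 tested proliferation genes relative to WT was 0.42, -0.04 and 1.44 on the log2 scale in KO libraries 1, 2 and 3. Mcm7, a subunit of the replicative helicase, was high in all KO libraries, at 10.02, 10.9 and 11.8 TPM in KO and 4.16, 5.04 and 5.10 TPM in WT (log2 fold change 1.05, SE 0.21, limma adjusted p = 0.077). Pcna, the sliding clamp of DNA replication, did not overlap between the groups either (log2 fold change 0.72, limma adjusted p = 0.25), and Ccna2, a cyclin of S phase and mitosis, did (0.85, limma adjusted p = 0.53, and -0.05 without KO library 3). Folh1 stood at 13.3, 21.1 and 18.8 TPM in KO libraries 1, 2 and 3. The part of proliferation in the values of the folate genes was not tested.

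No tested relative of Folh1 was higher in every KO library. The Folh1 protein belongs to a family of carboxypeptidases that also holds the transferrin receptors, and 4 genes of that family passed the filter. Naalad2, the closest of them in function, stood at 1.31, 0.388 and 0.932 TPM in KO libraries 1, 2 and 3, against 1.68, 1.27 and 1.63 TPM in WT libraries 1, 2 and 3 (log2 fold change -0.46, SE 0.23, limma adjusted p = 0.37). Tfr2, a transferrin receptor of iron sensing, stood at 0.906, 0.261 and 0.429 TPM in KO and 2.38, 1.26 and 1.78 TPM in WT. It was lower in every KO library (log2 fold change -0.88, limma adjusted p = 0.14). All its KO values were under 1 TPM, so Tfr2 passed the filter through its WT values alone. Cpq, a secreted glutamate carboxypeptidase, had a log2 fold change of -0.42 (limma adjusted p = 0.48).

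Genes closest to Folh1 in pattern were found by the root mean square difference of log2(TPM + 1) values, each relative to the gene's own WT mean, over the 6 libraries. In order they were Slc37a2, Cxcl13, Uhrf1, St3gal1 and Serpina3n, at distances of 0.38, 0.46, 0.49, 0.70 and 0.76. Slc37a2, a sugar phosphate exchanger, stood at 26.9, 21.5 and 18.6 TPM in KO libraries 1, 2 and 3, against 1.33, 2.34 and 2.495 TPM in WT libraries 1, 2 and 3. Both genes thus had low WT values and KO values of similar size in all KO libraries. St3gal1, a sialyltransferase, was higher in every KO library as well, at 41.6, 35.7 and 67.0 TPM in KO and 14.9, 4.09 and 6.92 TPM in WT. Cxcl13, a chemokine that attracts B cells, stood at 8.59, 8.74 and 6.07 TPM in KO and 0.598, 0.294 and 1.12 TPM in WT. Uhrf1, which keeps DNA methylation through replication, stood at 17.4, 16.4 and 12.7 TPM in KO and 1.74, 2.09 and 2.59 TPM in WT. Serpina3n, a secreted protease inhibitor, stood at 34.6, 14.2 and 8.95 TPM in KO and 1.00, 1.11 and 0.937 TPM in WT. Among the KO libraries, Slc37a2, Cxcl13, Uhrf1 and Serpina3n were lowest in KO library 3, whereas Folh1 was lowest in KO library 1. These genes were picked for their likeness over the same libraries, so the likeness itself carries no test.

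**Figure D4:**
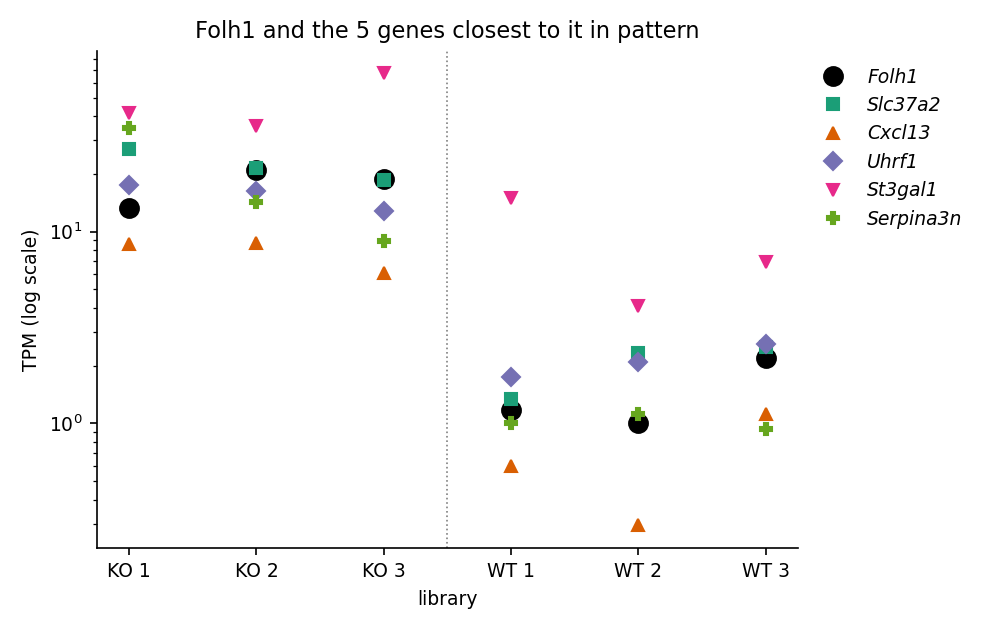
TPM on a log axis of Folh1 (black circles) and the 5 genes nearest to it in pattern, in KO libraries 1 to 3 on the left and WT libraries 1 to 3 on the right. For each of the 6 genes all KO libraries lie above all WT libraries; Folh1 is at 13.3 to 21.1 TPM in KO and 1.01 to 2.19 TPM in WT.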

How the data were processed

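The deposited table holds TPM. Per the labels, the authors normalized raw counts to the size of each library and to the length of each gene. The submitters' processing notes name TopHat2 2.1.1, Bowtie2 2.2.6, featureCounts 1.5.1, DESeq2 1.20.0 and the mm9 genome, with no annotation or strand setting. TPM are shares of a fixed total and keep no depth, so no count test was run.

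Groups came from the genotype label, with replicates numbered in accession order. In the sample titles WT library 1 is marked C, and WT libraries 2 and 3 are marked WT. Values were transformed to log2(TPM + 1), and 11268 of 23366 genes, those reaching 1 TPM in 3 or more libraries, were fitted with limma 3.58.1 (mean-variance trend, two-sided, Benjamini-Hochberg adjustment over all of them) in R 4.3.3. SE refers to the log2 fold change. The fit was also run on simulated libraries with known changes and independent noise for each gene, and its mean estimates were checked against those changes. No shift of a whole library, as in KO library 3, was simulated, so this check does not bear on the calls. The members, the lists and the rule for named genes were chosen with earlier results of these data known. That rule took all members, the 3 tested genes with the largest change in each list (no list gene was called) and the 5 genes most like Folh1; some list genes are counted but not reported here by name. Alternatives were 2 pseudocounts, 2 filters, 3 scalings, limma without trend or with array weights, a block for neighbouring library index numbers and leaving out each library. Leaving out KO library 1 and WT libraries 1 and 2 together was chosen after seeing the data. GENCODE M21 (GRCm38) served only to find overlapping gene names.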

Additional observations from a re-analysis of the deposited data

How the results depend on the processing

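Of all genes tested, 8 were called higher and 36 lower in KO. Array weights gave 3477 higher and 1345 lower, median-of-ratios scaling 14 and 45, quantile normalization 17 and 55, no filter 5 and 6, a filter of 5 TPM 7 and 22, a pseudocount of 0.1 TPM 7 and 18, and rescaling without the 50 most abundant genes 8 and 23. Leaving out each library gave 0 to 3809 higher and 0 to 1318 lower. The highest numbers came without KO library 3, and limma made 1, 0 and 0 calls in all without WT libraries 1, 2 and 3, with 879, 1024 and 1020 genes at an unadjusted p under 0.05. Members called higher numbered 0 to 2 and lower 0 to 1 over the fits without 1 library, and 2 and 1 with array weights. Genes of all 8 lists called higher numbered 0 to 17 and lower 0 to 8 without 1 library, 17 and 8 with array weights, and 1 (Ahcy, log2 fold change 1.33) and 0 with median-of-ratios scaling. Without KO library 1 and WT libraries 1 and 2, which leaves a lone WT library that is assumed to vary as the KO libraries do, 1 gene was called higher and 19 lower, 0 of them members (259 genes at an unadjusted p under 0.05). The causes were not tested.

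The median log2 fold change of all genes, 0.09, shifted by 0.15 with array weights, 0.17 without KO library 3 and -0.11 without those 3 libraries. Folh1 stayed called in 13 of the 16 alternatives chosen at the outset, with a log2 fold change of 2.81 to 3.57 over all 16. Some signs changed. With array weights Folr1 was at -0.16, Slc46a1 at 0.065 and Ccna2 at -0.071. Ggh was at -0.0040 with median-of-ratios scaling and -0.011 after rescaling without the 50 most abundant genes. Over the fits that leave out 1 library, Ggh ranged from -0.068 to 0.19, Folr1 from -0.20 to 0.48, Slc46a1 from -0.38 to 0.13, Folr2 from -0.72 to 0.072, Psph from -0.35 to 0.13 and Ccna2 from -0.047 to 1.46. Without the 3 libraries Ggh was at -0.020, Slc19a1 at -0.11, Abcc1 at -0.0040, Mthfd2 at -0.055 and Psat1 at -0.27.

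The library index numbers lie next to each other in pairs of 1 KO and 1 WT library, which the labels do not call a pairing. Numbers at the start of the sample titles lie close together in the same pairs. Deviations from the group means correlated at 0.17, 0.23 and 0.08 within these pairs. In all other pairs of 1 KO and 1 WT library they correlated less, at -0.21 to 0.03. With this pairing as a replicate block, limma called 7 genes higher and 24 lower, Folh1 among them and 0 list genes. Depth is unknown, so low genes, Folh1 in WT among them, carry counting error that cannot be given.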
